A study of Mus musculus with 12 samples.

Results

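Macrophages (MΦs) grown from bone marrow without myeloma cells were compared between mice with and without an intact Bmi1 gene. The comparison uses 6 of the 12 RNA-seq libraries of the series, chosen by their labels alone: 3 of BMI1-KO MΦs and 3 of wt MΦs. Both genotypes were on the C57BL/6 strain, both carried floxed Bmi1 alleles, and both received 5 doses of poly I:C, a synthetic double-stranded RNA that induces interferon, at 15 mg/kg at 6 to 8 weeks of age. The BMI1-KO genotype differs from the wt by the Mx1-Cre transgene, and is written BMI1fl/fl Mx1-Cre against BMI1fl/fl. The Mx1 promoter that drives Cre responds to interferon and is not particular to macrophages, so the gene was targeted in the blood-forming marrow from which these cells were later grown. Marrow was taken 4 weeks after poly I:C. Its cells were left to adhere for 2 h and then kept for 7 days with 10% serum and 5 ng/mL M-CSF, the growth factor on which macrophages depend. CD11b+ F4/80+ cells were sorted before RNA was taken. The other 6 libraries are of MM-MΦs, macrophages of the same genotypes kept with 5TGM1 mouse myeloma cells for 48 h. The labels number the replicates but do not say that each came from a separate mouse, and the spread that the p-values rest on may therefore be technical and is that of these libraries only.

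BMI1 is a subunit of Polycomb repressive complex 1 (PRC1), which places ubiquitin on histone H2A and holds developmental genes silent. Its best known target is Cdkn2a, a single gene that encodes the cell cycle inhibitor p16Ink4a and, from another first exon, p19Arf, which stabilises p53. Blood stem cells need BMI1 to keep dividing, and macrophages in M-CSF divide for a time before they stop.

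The 6 libraries held 9662279 to 10780035 counts, and 17611 to 18247 genes had at least 1 count in each. All 20 macrophage identity genes on the list used were present. Ctsb, a lysosomal protease, ranged from 1605 to 2175 FPKM (counts scaled to exon length and library total) in wt MΦs and from 2108 to 2307 FPKM in BMI1-KO MΦs, and Lyz2, lysozyme, from 5947 to 7882 FPKM and from 5732 to 7665 FPKM. Adgre1 and Itgam, the genes of the sorted F4/80 and CD11b, were at 298 to 349 and 38.3 to 49.0 FPKM in wt MΦs and at 363 to 446 and 24.2 to 42.5 FPKM in BMI1-KO MΦs. Among defining markers of other cells, Cd3e, Cd3d, Cd3g and Cd8a of T cells, Cpa3 and Mcpt4 of mast cells, and Hba-a1 and Hbb-bt of red cells were at 0 counts in all 6. At 0 throughout were 9 of 14 T and NK cell markers and 8 of 10 mast cell and basophil markers. These lists summed to 7.33 to 22.7 and 0.505 to 1.13 CPM (counts scaled to library total) over the 6 libraries. Of 13 erythroid and megakaryocyte markers 6 were at 0, and the list summed to 168 to 277 CPM. B and plasma cell markers, 3 of 16 at 0, summed to 301 to 502 CPM in wt and 306 to 337 in BMI1-KO MΦs. The libraries were not alike within a genotype. The first principal component of the 6 libraries held 44.3% of the variance and set libraries of the same number side by side across the genotypes, with scores of -37.4, -10.2 and 62.2 in wt replicates 1, 2 and 3 and of -57.2, 4.45 and 38.1 in BMI1-KO replicates 1, 2 and 3. The second, with 22.1%, separated the genotypes (23.1 to 32.6 in wt MΦs, -39.3 to -17.7 in BMI1-KO MΦs). Replicate numbers have no order as replicates, and what the numbers stand for is not given in the labels, so the main results are given library by library.

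Bmi1 itself (chr2:18677018-18686629 of GRCm38) had 251, 263 and 321 counts in wt MΦs, and 0 is listed for each of the 3 BMI1-KO libraries. These zeros may not be measurements. The deposited FPKM values give back a library total, and that total equalled the summed counts in each wt MΦ library but exceeded them by 512, 559 and 734 counts in BMI1-KO replicates 1, 2 and 3. Only exons 4 to 8 were floxed, so transcript from the other exons could still be made. No check of the labels and no fold rests on these zeros here. Commd3, the gene next to Bmi1, had 389, 529 and 624 counts in wt MΦs and 495, 517 and 527 counts in BMI1-KO MΦs, with a log2 fold change of 0.02 (95% confidence interval -0.32 to 0.35).

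Across 14197 genes tested, 7 differed between BMI1-KO and wt MΦs (0.0493%; edgeR quasi-likelihood test, adjusted p under 0.05), Bmi1 included. Of these, 5 rose (0.0352%) and 2 were lower (0.0141%). The call of Bmi1 rests on its listed zeros, and without it 6 genes were called (0.0423%), 1 of them lower. The 5 that rose were Bmpr1a, Cdkn2a, Cdc42bpa, Gdpd5 and Igf2bp3, and Crip1 fell. The median log2 fold change of all genes was -0.01. For reading the counts that follow, 819 genes (5.77%) had an unadjusted p under 0.05, and at 10% of genes the libraries of the 2 genotypes did not overlap (734 higher in BMI1-KO, 5.17%, and 686 lower, 4.83%). RefSeq promoters (250 bases before to 50 after a transcript's start, build GRCm38.p6) were at hand for 6 of the 7 genes. Those of the 3 genes with the largest rises are printed because PRC1 is known to bind promoters rich in CpG. Capitals mark every CG pair, and each sequence runs 5′ to 3′ on the gene's own strand, which is the minus strand for all 4. Cdkn2a has a promoter for each of its first exons.
Bmpr1a promoter, chr14:34502497-34502796: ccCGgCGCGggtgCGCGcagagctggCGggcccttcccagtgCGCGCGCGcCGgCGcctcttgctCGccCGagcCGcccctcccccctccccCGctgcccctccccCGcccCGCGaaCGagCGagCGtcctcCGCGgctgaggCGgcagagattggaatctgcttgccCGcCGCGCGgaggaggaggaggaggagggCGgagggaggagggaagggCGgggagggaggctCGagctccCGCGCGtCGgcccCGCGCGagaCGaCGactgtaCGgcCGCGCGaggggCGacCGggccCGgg
Cdkn2a promoter before the p19Arf first exon, chr4:89294570-89294869: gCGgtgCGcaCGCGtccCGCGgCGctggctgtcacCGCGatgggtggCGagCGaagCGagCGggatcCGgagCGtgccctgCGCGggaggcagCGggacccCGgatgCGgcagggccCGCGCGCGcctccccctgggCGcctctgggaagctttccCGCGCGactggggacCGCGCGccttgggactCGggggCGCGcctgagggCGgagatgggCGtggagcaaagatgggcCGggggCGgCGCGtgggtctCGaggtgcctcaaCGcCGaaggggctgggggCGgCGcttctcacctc
Cdkn2a promoter before the p16Ink4a first exon, chr4:89282143-89282442: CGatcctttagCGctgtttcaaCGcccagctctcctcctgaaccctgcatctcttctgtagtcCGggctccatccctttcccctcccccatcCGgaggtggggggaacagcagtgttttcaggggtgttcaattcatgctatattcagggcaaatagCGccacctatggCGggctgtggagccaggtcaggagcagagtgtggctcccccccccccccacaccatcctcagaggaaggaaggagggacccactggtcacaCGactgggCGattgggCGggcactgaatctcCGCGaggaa
Igf2bp3 promoter, chr6:49214905-49215204: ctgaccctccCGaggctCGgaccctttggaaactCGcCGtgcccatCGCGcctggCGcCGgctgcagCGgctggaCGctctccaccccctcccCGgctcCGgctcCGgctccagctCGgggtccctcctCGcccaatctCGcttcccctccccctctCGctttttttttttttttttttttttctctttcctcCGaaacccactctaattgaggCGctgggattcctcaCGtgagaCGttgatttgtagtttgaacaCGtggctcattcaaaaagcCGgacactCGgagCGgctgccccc
The Bmpr1a promoter holds 48 CG pairs, and 1.22% of 32851 RefSeq promoters of the same length hold as many or more. The p19Arf promoter of Cdkn2a holds 45 (1.93% of promoters) and that of Igf2bp3 25 (18.4%). The p16Ink4a promoter holds only 12 (39.6%), against a median of 7 over all promoters. Crip1 has 18, the promoters of Cdc42bpa 11 and 7, and Bmi1 23. These are counts of letters in a window and describe no binding.

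Bmpr1a (chr14:34410734-34503341), a type I receptor for bone morphogenetic proteins, had 19, 46 and 29 counts in wt MΦs and 485, 509 and 539 counts in BMI1-KO MΦs. All BMI1-KO libraries lay close together and far above every wt library, at 49.3 ± 1.06 CPM (counts scaled to library total; SD, n = 3) against 3.03 ± 1.47. The gene rose 16.2-fold (log2 fold change 4.02 with SE 0.34, edgeR adjusted p = 0.000728). Per length it went from a mean of 0.48 FPKM to 7.82 FPKM. It passed the test with any 1 of the 6 libraries left out, with log2 fold changes of 3.78 to 4.47.

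Cdkn2a (chr4:89274471-89294653) had 1, 0 and 7 counts in wt MΦs and 133, 144 and 179 counts in BMI1-KO MΦs. Wt MΦs were thus at or near 0, and each BMI1-KO library held at least 133 counts. The summed counts differed 57.3-fold (8 against 456 counts, 95% counting interval 28.8 to 134), and the fitted log2 fold change was 5.81 (SE 0.65, edgeR adjusted p = 0.00835). Mean FPKM went from 0.21 to 12.6. The call held with any 1 of the 6 libraries left out (highest edgeR adjusted p = 0.0472). It was lost when the fit was made on the 6 MΦ libraries alone (edgeR adjusted p = 0.239), where Bmpr1a alone passed apart from Bmi1 with its listed zeros, and without the 4 libraries of the series numbered replicate 1 (edgeR adjusted p = 0.163). Both products of the gene share exons 2 and 3, so counts per gene do not separate p16Ink4a from p19Arf. The forward primer of the study's p16 assay, tgaatctccgcgaggaaagc, matched exon 1 of the p16Ink4a transcript alone (chr4:89282140-89282159), and no count in these files corresponds to that exon by itself.

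Igf2bp3 (chr6:49085223-49214957), an RNA-binding protein of fetal tissues that is largely silent in adult cells, had 182, 117 and 53 counts in wt MΦs and 1044, 1328 and 1442 counts in BMI1-KO MΦs. The groups were far apart, with the wt libraries spread more widely among themselves than the BMI1-KO libraries. Its level rose 10.5-fold, from 11.7 ± 6.99 to 122 ± 11.7 CPM (SD, n = 3; log2 fold change 3.39 with SE 0.49, edgeR adjusted p = 0.0433). Without wt replicate 1 the call held, and it was lost without any other single library, with edgeR adjusted p between 0.0748 and 0.262. The fold change itself stayed between 3.0 and 3.89 on the log2 scale. The fit takes its estimate of spread from all 12 libraries, and the call was also lost in 4 of the 6 fits that left out an MM-MΦ library (wt replicate 2 or any of the BMI1-KO replicates).

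Cdc42bpa (chr1:179960472-180165603), a kinase that acts on the actin skeleton downstream of Cdc42, had 93, 96 and 68 counts in wt MΦs and 277, 426 and 604 counts in BMI1-KO MΦs. It rose from 8.35 ± 2.21 to 41.4 ± 13 CPM (SD, n = 3; log2 fold change 2.31 with SE 0.28, edgeR adjusted p = 0.0123). The BMI1-KO libraries differed among themselves by more than their wt counterparts but none reached down to them. The call was lost without wt replicate 2, wt replicate 3 or BMI1-KO replicate 2 (edgeR adjusted p of 0.0582, 0.0532 and 0.0592).

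Gdpd5 (chr7:99381414-99461877), a phosphodiesterase that cleaves membrane anchors, had 313, 221 and 323 counts in wt MΦs and 537, 761 and 738 counts in BMI1-KO MΦs (log2 fold change 1.25 with SE 0.18, edgeR adjusted p = 0.0433). Crip1 (chr12:113146316-113153879), a small LIM-domain protein, had 336, 311 and 506 counts in wt MΦs and 131, 159 and 156 counts in BMI1-KO MΦs, a 2.54-fold lower mean level (log2 fold change -1.34 with SE 0.19, edgeR adjusted p = 0.0433). In neither gene did the groups overlap. Both calls were lost when any 1 of the 6 libraries was left out, with edgeR adjusted p from 0.0657 to 0.285 for Gdpd5 and from 0.107 to 0.285 for Crip1. Of the MM-MΦ libraries, which share the estimate of spread, leaving out BMI1-KO replicate 3 alone kept both calls.

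**Figure D1:**
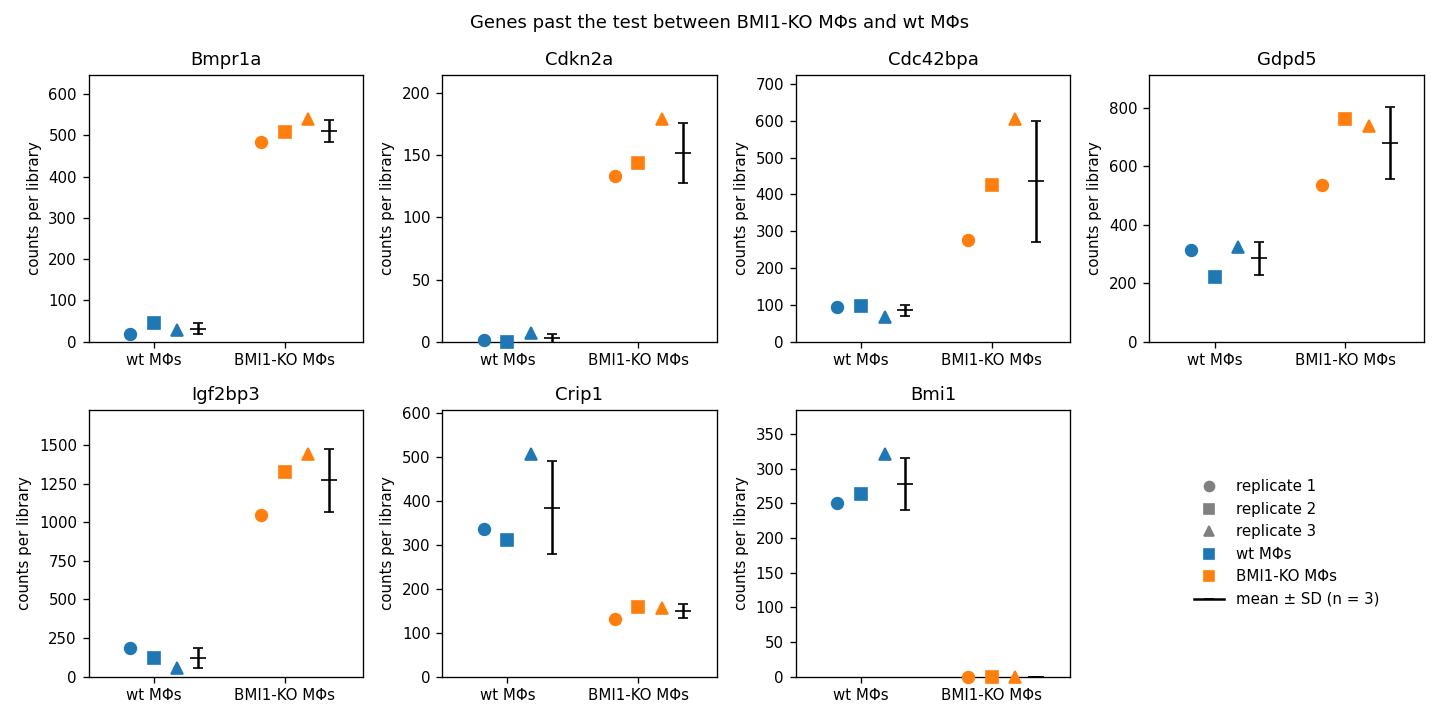
Each panel shows 1 of the 7 genes past the threshold, with counts per library on the vertical axis for the 3 wt and 3 BMI1-KO MΦ libraries, the marker shape giving the replicate number and the bars the mean ± SD. The groups overlap in none of the 7, and Bmi1 is drawn at its listed 0 in BMI1-KO MΦs.

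Below the threshold, 11 of the next 13 genes in order of p are described, of which 4 were at or near 0 in wt MΦs. None of the 11 passed the edgeR test, and their values are given as such. Lhx8, a homeobox factor of the developing brain and tooth, had 0 counts in every wt MΦ library and 14, 18 and 14 in BMI1-KO MΦs, at least 15.4-fold higher against a floor of 3 counts over the wt group. Sall3, a zinc finger factor of limb and nerve development, had 0 counts in wt MΦs and 13, 43 and 38 in BMI1-KO MΦs, at least 31.5-fold higher. Igf2bp1, the close relative of Igf2bp3, had 0 counts in wt MΦs and 22, 31 and 89 in BMI1-KO MΦs, at least 47.6-fold higher. The edgeR adjusted p-values were 0.111 for Lhx8, 0.0952 for Sall3 and 0.194 for Igf2bp1. AI606473, a gene of unknown role at chr3:154330821-154334254, beside Lhx8 at chr3:154306294-154330659, had 2, 0 and 4 counts against 27, 35 and 21.

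Among those already present in wt MΦs, Srpk3, a kinase of splicing factors, had 10, 5 and 8 counts against 35, 58 and 32. Ptchd1, a patched-domain membrane protein, had 43, 27 and 45 counts against 80, 217 and 286, and Slc2a9, a urate transporter, had 229, 229 and 233 against 325, 398 and 441. In these 3 genes every BMI1-KO library was above every wt library. The lower side held Fabp7, a fatty acid carrier, with 260, 541 and 525 counts against 107, 137 and 146 (log2 fold change -1.75 with SE 0.30, edgeR adjusted p = 0.111), and Kctd17, an adaptor of ubiquitin ligases, with 131, 182 and 195 against 58, 57 and 85 (-1.34, SE 0.23). Marveld1, a membrane protein, had 191, 182 and 186 counts against 68, 66 and 105, and Clec4a2, an inhibitory lectin receptor, 657, 661 and 894 against 358, 291 and 399. In these 4 also the groups did not overlap. DESeq2 called all 11 of these genes, among 78 calls in all, 46 higher and 32 lower.

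**Figure D2:**
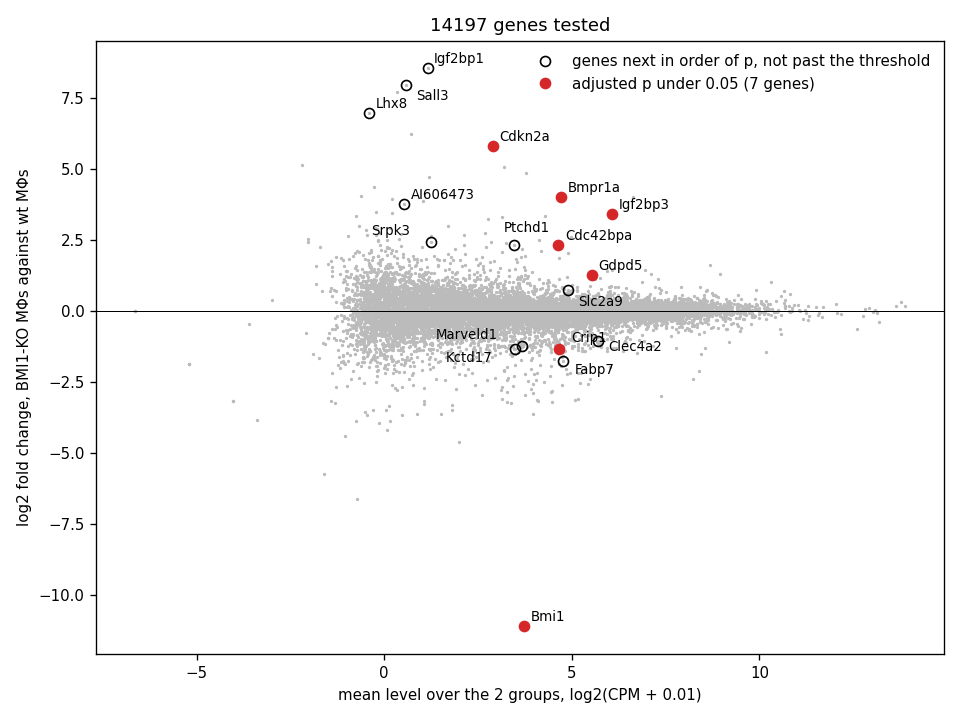
Each point is 1 of 14197 genes, with the mean level in MΦs as log2(CPM + 0.01) on the horizontal axis and the log2 fold change of BMI1-KO against wt MΦs on the vertical axis. Filled red points are the 7 genes past the threshold and open circles the 11 genes described from the next 13 in order of p; points against a group at 0 (Bmi1, Lhx8, Sall3, Igf2bp1) have a fitted size that is not measured.

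Genes near 0 in wt MΦs were also looked for in the whole table by a rule on the counts: at most 3 counts over the 3 wt MΦ libraries and at least 5 in every BMI1-KO MΦ library. As the rule uses the compared values, the result is a description. It found 16 genes, against 8 by the same rule with the genotypes exchanged. With at least 10 counts in every library it found 6 (Igf2bp1, Sall3, Lhx8, Hoxa7, Zswim5 and Gm14204), against 1 the other way, which is Bmi1 with its listed zeros. Hoxa7 had 0, 0 and 1 counts in wt MΦs and 28, 44 and 28 in BMI1-KO MΦs, a ratio of 101 (counting interval 17.6 to 4012; edgeR adjusted p = 0.198). Hoxa5, its neighbour in the cluster, had 0, 0 and 2 counts against 7, 9 and 6, a ratio of 11.1 (2.72 to 97.1). Nt5e, the ectoenzyme CD73 that makes adenosine, had 0, 2 and 0 counts against 22, 9 and 17.

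Most members of the families that Polycomb complexes are known to hold silent were too low to test. Of 39 Hox genes 12 were at 0 in all 6 libraries and 4 had enough counts to be tested, and 0 passed. Of 81 developmental transcription factors 43 were at 0 throughout and 8 were tested. Of those 8, 7 had log2 fold changes above 0 and 1 below, with a median of 1.43, and 0 passed the edgeR test. At an unadjusted p under 0.05 there were 3 higher (2.96% of all genes were) and 1 lower (2.81%). Lhx8, with 0 counts in every wt library, was tested through its counts in BMI1-KO libraries alone. Lhx2 had 4, 1 and 1 counts against 13, 30 and 4, with groups that overlapped in level. Pbx3, the 1 below 0, had 94, 119 and 228 against 56, 74 and 76 (log2 fold change -1.06 with SE 0.31, edgeR adjusted p = 0.525). At these depths 3 counts is the least that can be told from none, so a Hox or homeobox gene at 0 was not detectable at this depth rather than shown to be silent. Of 12 oncofetal genes 6 were tested, 1 passed (Igf2bp3), and Hmga2, a chromatin protein of embryonic cells, had 52, 33 and 23 counts against 111, 296 and 733 (3.33, SE 0.77, edgeR adjusted p = 0.312). In BMI1-KO MΦs Hmga2 was lowest in replicate 1 and highest in replicate 3.

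**Figure D3:**
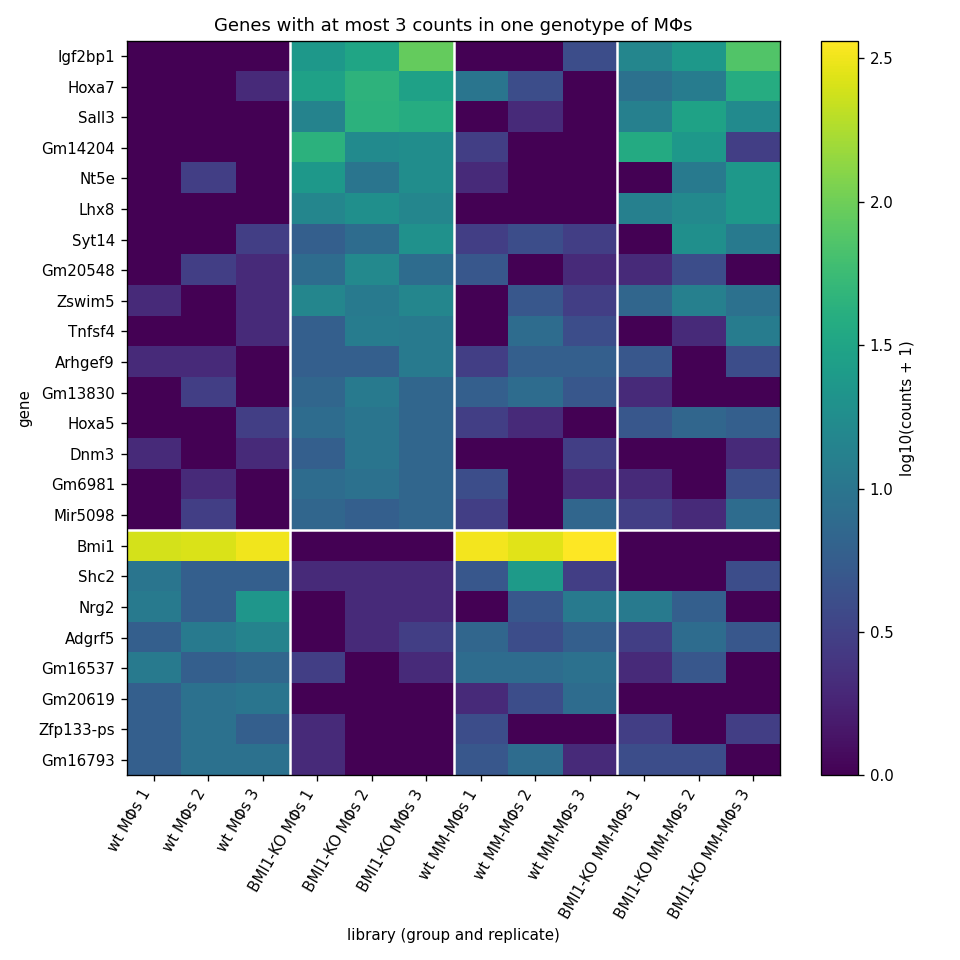
Each row is a gene, each column 1 of the 12 libraries, and the colour is log10(counts + 1). The upper 16 genes had at most 3 counts over wt MΦs and at least 5 in every BMI1-KO MΦ library, the lower 8 the reverse; the MΦ columns chose them, and in the MM-MΦ columns, which did not, Igf2bp1, Sall3, Lhx8, Zswim5, Hoxa5 and, below the line, Bmi1, Gm16537 and Gm20619 again do not overlap.

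Among 20 PRC1 subunits tested, 0 passed the threshold apart from Bmi1 with its listed zeros. Cbx8, a chromobox subunit, had 19, 22 and 30 counts in wt MΦs and 48, 60 and 36 in BMI1-KO MΦs (log2 fold change 1.05 with SE 0.30, edgeR adjusted p = 0.5). The list had 14 members above and 6 below 0, Bmi1 with its listed zeros among the 6, and a median of 0.11. PRC2, the complex that methylates histone H3, had 0 of 12 subunits past the threshold and a median of -0.03. Ezh2, its catalytic subunit, had 130, 200 and 774 counts against 48, 194 and 270, highest in replicate 3 of both genotypes.

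Beside Cdkn2a on chromosome 4 lies Cdkn2b, the gene of p15Ink4b. It had 10, 7 and 4 counts in wt MΦs and 19, 36 and 49 in BMI1-KO MΦs, without overlap (log2 fold change 2.25 with SE 0.60, edgeR adjusted p = 0.446; DESeq2 adjusted p = 0.0375). Cdkn1a, the p53 target p21, had 1764, 1962 and 2277 counts against 1912, 2334 and 1796, a log2 fold change of 0.03 (SE 0.12), and Cdkn1b, p27, had 664, 622 and 658 against 484, 577 and 387 (-0.41, SE 0.20). Of the 8 CDK inhibitors, Cdkn2a alone passed the edgeR test. Ccnd2, cyclin D2, had 59, 131 and 176 counts against 453, 1598 and 3971 (4.02, SE 0.82, edgeR adjusted p = 0.214). That is as large a fold change as that of Bmpr1a, but BMI1-KO replicate 3 held more counts than the other BMI1-KO libraries together. Ccnd1, cyclin D1, had 885, 1336 and 4504 counts against 1353, 5622 and 12972, and Cdk6, their partner kinase, had 2962, 2699 and 3560 against 2796, 4700 and 7876; both overlapped. Of 15 G1 cyclins and kinases 0 passed. Of 23 p53 target genes 0 passed, 14 were above and 9 below 0, and the median was 0.03. At an unadjusted p under 0.05 there were 3 higher (2.96% of all genes were) and 0 lower (2.81%). Zmat3, an RNA-binding p53 target, had 417, 550 and 619 counts against 555, 725 and 853 (0.43, SE 0.16, edgeR adjusted p = 0.707), whereas Sesn1, another, had 1158, 1333 and 1260 against 1008, 1000 and 1088 (-0.27, SE 0.13).

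Of Bmpr1a's pathway, the other receptors and the Smads that carry the signal showed no comparable difference. Of 23 tested members of this list, Bmpr1a alone passed, and the list median was 0.08. Tgfbr1, a receptor for TGF-β, had 5195, 5014 and 4473 counts against 5112, 7108 and 7693 (0.42, SE 0.19). Acvr2a, a type II receptor, had a log2 fold change of 0.47 (SE 0.24) and Smad1, which BMP receptors phosphorylate, one of -0.28 (SE 0.13).

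Genes of cell division were lower on average in BMI1-KO MΦs, but the difference turned sign without 1 wt library. All 42 S phase genes and all 53 G2 and M phase genes tested had log2 fold changes below 0, with medians of -0.92 and -1.04, and 0 passed the edgeR test in either list. At an unadjusted p under 0.05, which 2.81% of all genes reached on the lower side, the count was also 0 in both. The mean level of the S phase list was 3.35, 3.81 and 5.69 log2 CPM in wt replicates 1, 2 and 3 and 2.57, 3.85 and 4.34 in BMI1-KO replicates 1, 2 and 3. The G2 and M phase list gave 3.40, 4.56 and 6.29 against 2.50, 4.53 and 4.92. Wt replicate 3 thus stood above all others and BMI1-KO replicate 1 below, while wt and BMI1-KO replicate 2 were level. Without wt replicate 3 the medians turned to 0.21 and 0.24, with 31 of 42 and 43 of 53 genes above 0. Without the 4 libraries of the series numbered replicate 3, they were -0.18 and -0.14. Without BMI1-KO replicate 1 they were -0.64 and -0.58.

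Mki67, which encodes the Ki67 antigen of dividing cells, had 1848, 2974 and 13118 counts in wt MΦs and 835, 2702 and 3333 in BMI1-KO MΦs (log2 fold change -1.32 with SE 0.76, edgeR adjusted p = 0.957). Its range within wt MΦs was wider than the difference between the groups. With single libraries left out the log2 fold change ran from -1.73 to -0.19, the last without wt replicate 3. Clustered histone genes, whose messages are made in S phase and mostly lack a poly(A) tail, took 0.0257, 0.0574 and 0.386% of counts in wt MΦs and 0.0151, 0.0369 and 0.0514% in BMI1-KO MΦs. Their median was -2.20 over 60 genes, and -0.27 without wt replicate 3. Of the 60, 12 had an unadjusted p under 0.05 on the lower side (2.81% of all genes did), and 0 passed the threshold. Hist1h3b, a histone H3 gene, had 26, 51 and 923 counts against 3, 24 and 48. DNA replication genes had a median of -0.80 over 48, and 0.13 without wt replicate 3.

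**Figure D4:**
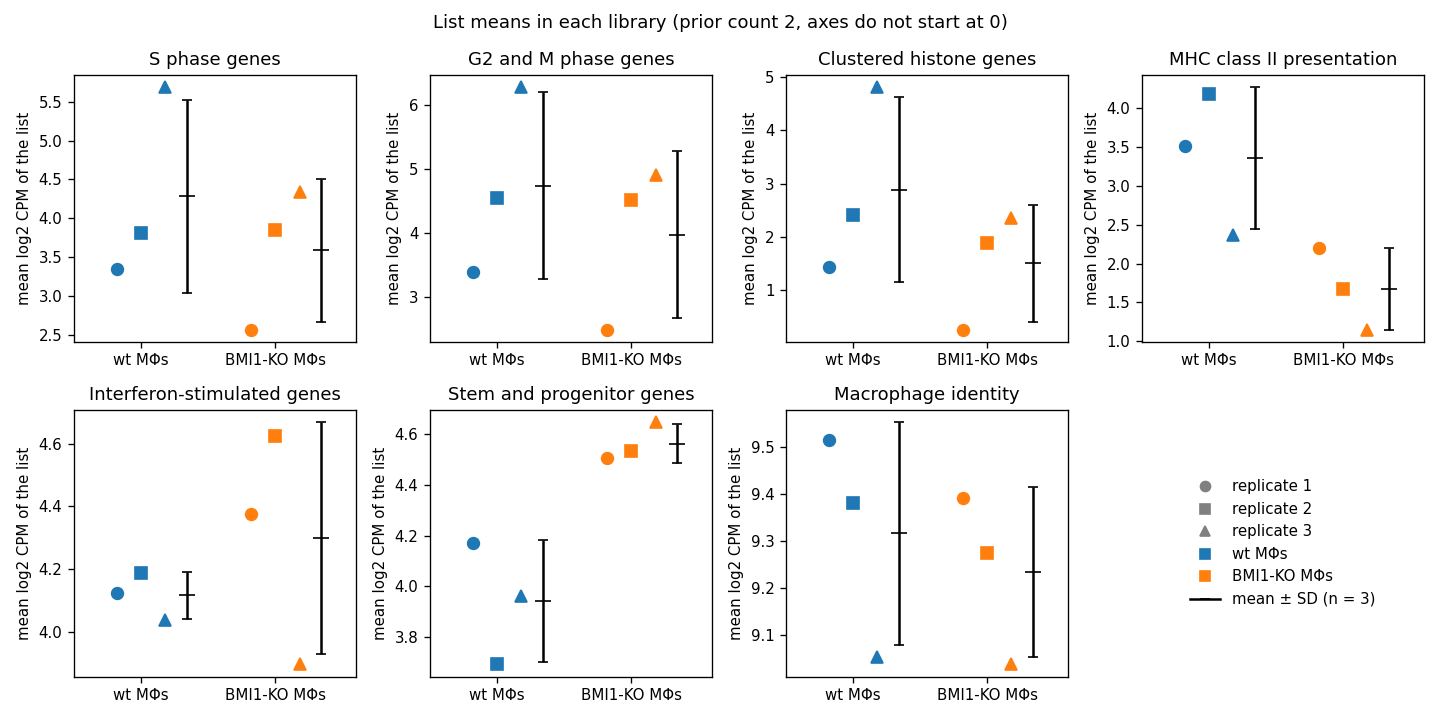
Mean log2 CPM over the tested genes of selected lists, 1 point per MΦ library with the marker shape giving the replicate number. S phase, G2 and M phase and histone means spread more within a genotype than between genotypes, with wt replicate 3 highest; MHC class II means are higher in each wt library (2.37 to 4.19) than in any BMI1-KO library (1.15 to 2.20), and stem and progenitor means are lower in each wt library than in any BMI1-KO library.

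Interferon-stimulated genes had a small lean upward. Poly I:C had been given to both groups, 4 weeks before marrow was taken. Of 52 such genes 40 had log2 fold changes above 0, the median was 0.19, and 0 passed the edgeR test. At an unadjusted p under 0.05, which 2.96% of all genes reached on the higher side, there were 8. Library means were 4.12, 4.19 and 4.04 log2 CPM in wt MΦs and 4.38, 4.63 and 3.89 in BMI1-KO MΦs, so BMI1-KO replicate 3 was the lowest of all. Ifi44, an antiviral protein of unsettled function, had 18, 23 and 27 counts against 78, 73 and 56 (log2 fold change 1.63 with SE 0.34, edgeR adjusted p = 0.214), without overlap. Irf9, a subunit of the interferon-activated factor ISGF3, had 402, 371 and 494 counts against 475, 648 and 542 (0.41, SE 0.13). Ifit1, which binds viral RNA, had 52, 61 and 49 against 76, 109 and 69 (0.65, SE 0.24).

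Genes of MHC class II presentation, by which macrophages and dendritic cells show peptides to CD4+ T cells, lay lower in BMI1-KO MΦs. All 8 tested had log2 fold changes below 0, with a median of -2.30, and 5 had an unadjusted p under 0.05 (2.81% of all genes did on the lower side), but 0 passed the edgeR test. H2-Ab1, a class II β chain, had 153, 265 and 96 counts in wt MΦs and 30, 34 and 7 in BMI1-KO MΦs (log2 fold change -2.86 with SE 0.76, edgeR adjusted p = 0.446). Cd74, the invariant chain, had 794, 892 and 217 counts against 195, 73 and 60 (-2.54, SE 0.76, edgeR adjusted p = 0.525). The H2-Ab1 groups did not overlap, and those of Cd74 met, in CPM, at wt replicate 3 and BMI1-KO replicate 1. H2-Aa had 103, 194 and 23 counts against 25, 5 and 12, and H2-Eb1 had 76, 98 and 20 against 10, 7 and 0. Over the alternatives tried the list median ran from -3.06 to -1.76. DESeq2 called H2-Ab1 and Cd74 alone among these 4.

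The 12 dendritic cell markers, of which 5 could be tested, had 4 members below and 1 above 0, and 0 passed the edgeR test. The median of the 5 was -1.19, and 2 had an unadjusted p under 0.05 on the lower side (2.81% of all genes did). Their mean level was 4.02, 4.51 and 3.44 log2 CPM in wt MΦs and 3.26, 3.10 and 2.37 in BMI1-KO MΦs, without overlap. The summed level of the 12 was 454, 727 and 266 CPM in wt MΦs and 282, 241 and 194 CPM in BMI1-KO MΦs. Of the 12 genes 1 was at 0 in all 6 libraries. The difference in the sum was that of Itgax, the integrin CD11c, which macrophages express too. It had 2522, 5280 and 1098 counts against 589, 389 and 141, without overlap (-3.0, SE 0.86, edgeR adjusted p = 0.5). Without Itgax the other markers summed to 211, 194 and 164 CPM in wt MΦs and 221, 204 and 181 CPM in BMI1-KO MΦs, and the groups overlapped. In bulk RNA fewer cells of a type and less RNA per cell cannot be told apart. Sdc1, syndecan-1, which stands on the plasma cell list but can also be made by macrophages, had 827, 1169 and 284 counts against 207, 77 and 157 (-2.40, SE 0.63). MHC class I genes did not share the difference, with a median of -0.12 over 20 and 0 past the threshold.

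Receptors of alternatively activated macrophages lay lower in several cases without passing the test. Mrc1, the mannose receptor CD206, had 8236, 9735 and 9639 counts in wt MΦs and 7551, 5023 and 3955 in BMI1-KO MΦs (log2 fold change -0.71 with SE 0.28, edgeR adjusted p = 0.795). The groups did not overlap in level, though BMI1-KO replicate 1 came close to wt. Folr2, the folate receptor β, had 581, 1119 and 1420 counts against 227, 475 and 563 (-1.29, SE 0.44), and Arg1, arginase, had 18, 215 and 240 against 22, 44 and 41 (-2.11, SE 1.02). Cd163, a haemoglobin scavenger receptor, overlapped, at 5, 49 and 89 counts against 16, 11 and 54. The M2 and scavenger list had 5 members above and 9 below 0 of 14, with a median of -0.15. Among 20 C-type lectin receptors 15 were below 0, with a median of -0.41. At an unadjusted p under 0.05 there were 6 lower (2.81% of all genes were) and 0 higher. Clec1b, a receptor for podoplanin, had 20, 33 and 17 counts against 5, 5 and 10, and Cd302 had a log2 fold change of -0.58 (SE 0.19). Lgals3, galectin-3, had 23944, 21138 and 14292 counts against 12378, 12673 and 8901 (-0.81, SE 0.32, edgeR adjusted p = 0.794), with groups that overlapped in level.

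Of the adhesion, matrix and vessel lists 0 genes passed the edgeR test, and log2 fold changes lay on both sides of 0. Mmp9, gelatinase B, had 12, 66 and 24 counts against 134, 232 and 387 (2.83, SE 0.61, edgeR adjusted p = 0.248), while Mmp12, macrophage elastase, had 15340, 26780 and 9803 against 4142, 7794 and 7625 (-1.46, SE 0.51, edgeR adjusted p = 0.685). Neither pair of groups overlapped. Mmp2 was low in all libraries, with 16, 23 and 9 counts against 8, 14 and 6. Itgav, the integrin αv chain, had 6883, 6835 and 8828 counts against 8262, 12229 and 17445 (0.75, SE 0.21). Over 18 integrins the median was -0.11 and over 16 metalloproteinases and inhibitors -0.12. Of 27 angiogenic factors 19 were above 0, with a median of 0.28. Vegfa had 2077, 1421 and 1118 counts against 1479, 959 and 808 (-0.50, SE 0.36), with overlap, and Pdgfb had 920, 829 and 651 against 994, 1439 and 1401 (0.66, SE 0.22). Col18a1, the collagen that yields endostatin, had 88, 64 and 132 counts against 138, 372 and 1224 (2.59, SE 0.83). Thbs2, an inhibitor of vessel growth, had 26, 47 and 32 against 9, 11 and 21 (-1.37, SE 0.57).

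Stem and progenitor genes lay higher. All 8 tested members had log2 fold changes above 0, with a median of 0.37. At an unadjusted p under 0.05, which 2.96% of all genes reached on the higher side, there were 3, and 0 passed the edgeR test. The list had 5 above and 3 below 0 without BMI1-KO replicate 1 (median 0.48), and 6 and 2 without wt replicate 3 (0.45). Cd34, a surface protein of progenitors and vessel cells, had 143, 98 and 121 counts in wt MΦs and 281, 381 and 868 in BMI1-KO MΦs (2.05, SE 0.44, edgeR adjusted p = 0.248). Sox4, a factor of immature blood cells, had 149, 228 and 223 against 356, 337 and 359 (0.82, SE 0.20, edgeR adjusted p = 0.371), and Tal1 had 79, 58 and 134 against 137, 234 and 256 (1.23, SE 0.34). The groups did not overlap in any of the 3, and DESeq2 called Cd34 and Sox4. The summed level of the list was 277 to 342 CPM in wt MΦs and 365 to 438 CPM in BMI1-KO MΦs. Neutrophil markers, which immature marrow cells also express, summed to 143 to 241 CPM in wt MΦs and 107 to 285 CPM in BMI1-KO MΦs. Of 9 tested, 8 had log2 fold changes above 0 and 1 below, with a median of 1.57, and 0 passed the edgeR test. The mean level of those tested was 1.61, 2.32 and 1.36 log2 CPM in wt MΦs and 3.02, 3.88 and 1.36 in BMI1-KO MΦs. Ngp, a granule protein, had 13, 61 and 32 counts against 103, 322 and 15. Elane, neutrophil elastase, was at 0 in all 6 libraries. The part of neutrophil markers in the stem and progenitor values was not tested. Endothelial markers, which could also bring Cd34, summed to 27.4 to 80.4 CPM against 31.2 to 68.2 CPM, and 5 of 10, Tek and Cldn5 among them, were at 0 throughout.

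In the chemokine, iron and Hedgehog and Myc lists 0 genes passed the edgeR test. Cx3cr1, the fractalkine receptor, had 1943, 2039 and 5356 counts against 2862, 7030 and 12758 (1.30, SE 0.56), highest in replicate 3 of each genotype, and Ccl6, a chemokine, had 1005, 950 and 1781 against 849, 726 and 602 (-0.73, SE 0.24). Cat, catalase, had 2930, 3010 and 3099 counts against 4810, 5837 and 3967 (0.70, SE 0.20), and Tfrc, the transferrin receptor by which cells take up iron, 3771, 3684 and 3074 against 1840, 2725 and 2067 (-0.68, SE 0.21); neither overlapped and neither passed the edgeR test (adjusted p of 0.5 and 0.606). Myc had 361, 323 and 558 counts against 294, 522 and 441, a log2 fold change of 0.04 (95% confidence interval -0.56 to 0.63). Smo, the Hedgehog signal transducer, had 87, 195 and 231 against 101, 115 and 171 (-0.39, SE 0.40).

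The co-cultured macrophages of the same genotypes gave a second look that is not independent, since MΦ and MM-MΦ libraries with the same number in a genotype deviated together. In MM-MΦs 9 genes passed the edgeR test between genotypes (0.0634%), and at 8.85% of genes the libraries did not overlap. There Bmpr1a had 17, 37 and 38 counts without and 485, 480 and 488 counts with the deletion (4.01 on the log2 scale), and Igf2bp3 had 186, 114 and 58 against 1013, 1205 and 1339 (3.30). Cdc42bpa had a log2 fold change of 2.33, Gdpd5 of 1.51 and Crip1 of -1.33.

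Whether the effect of Bmi1 loss differed between MΦs and MM-MΦs was tested as an interaction. Of 14197 genes 0 passed with edgeR (0%), DESeq2 or limma-voom, and 129 had an unadjusted p under 0.05 with edgeR (0.909%). These fits treated every library as independent, although same-numbered libraries deviated together as described above. Such shared deviation can make the interaction's spread too large and the test too strict. The 0 calls therefore do not show that the effect was the same with and without myeloma cells. Cdkn2a, with 0, 0 and 1 counts in MM-MΦs of the wt and 108, 159 and 230 in those of the BMI1-KO, had an interaction of 2.70 on the log2 scale (SE 1.28, edgeR adjusted p = 1), resting on the 8 counts of wt MΦs against 1 of wt MM-MΦs. Hoxa7 had 9, 3 and 0 counts in MM-MΦs of the wt and 8, 11 and 38 in those of the BMI1-KO, so the near absence in wt MΦs was not seen there (interaction edgeR adjusted p = 1). Of the genes whose libraries did not overlap in MΦs (10% of all), 734 were higher and 686 lower in BMI1-KO. In MM-MΦs 193 of the 734 (26.3%; 30.9% of the 624 higher there) were again higher without overlap and 13 lower, and 177 of the 686 (25.8%; 28.0% of the 633 lower there) were again lower and 7 higher.

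**Figure D5:**
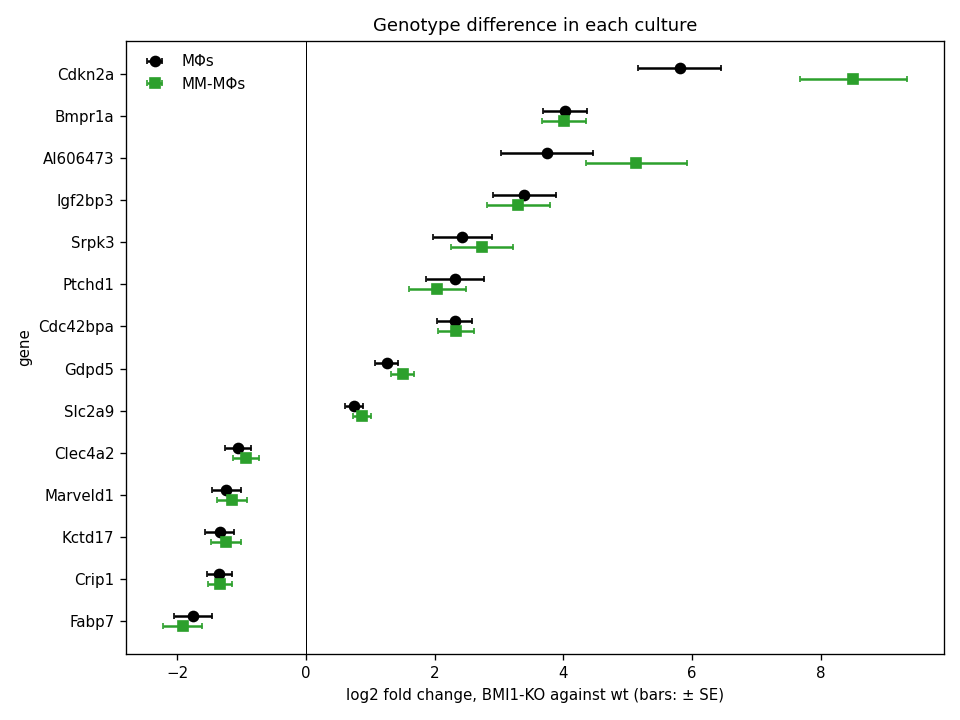
Log2 fold change of BMI1-KO against wt (horizontal axis, bars ± SE) in MΦs (black circles) and MM-MΦs (green squares) for the genes described as first in order of p, without those that have a group at 0 in MΦs. The bars of a gene's 2 points overlap for all but Cdkn2a, and each of the genes shown lies on the same side of 0 in both cultures.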

How the data were processed

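Of 12 libraries in 4 groups of 3, 6 were compared. Raw counts of 55573 genes were deposited as a table, and FPKM values by library. The submitters' processing notes name bcl2fastq 2.17.1.14, cutadapt 1.9.1, HISAT2 2.0.1, HTSeq 0.6.1 and DESeq2 with the mouse build GRCm38 (mm10). No annotation release, strand setting or DESeq2 version is named in those sources, so overlapping genes and close copies are uncertain.

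Groups and replicate numbers came from the labels. The main test was edgeR 4.0.16 in R 4.3.3: TMM scaling, filterByExpr (minimum count 10, minimum total 15, large group size 10, minimum proportion 0.7; 14197 genes kept), a quasi-likelihood fit of 4 group means to 12 libraries (common dispersion 0.102), and Benjamini-Hochberg adjustment over all genes tested with a threshold of 0.05. Standard errors are the fold change over the root of F. CPM of single genes are TMM-scaled, summed CPM of lists use the library totals, and list means are averages of log2 CPM with a prior count of 2. Counting intervals and the floor of 3 counts over a group cover counting error only, at totals of 9662279 to 10780035 counts. Replicates differed by more than sampling noise in every group. The scripts were tested on simulated data. Alternatives were DESeq2 1.42.0, limma-voom (limma 3.58.1), other scalings, filters and sets of libraries, and a replicate block.

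The deposited FPKM values, which the authors had divided by exon length and library total, were used for levels per length and, where a gene had at least 50 counts, to bound that total within a rounding tolerance of 0.005.

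Genes were named by a rule: all past the threshold, the next in order of p up to 20, up to 4 members of each list with the smallest p (markers: the 3 highest), genes the study names, and neighbours of Bmi1 and Cdkn2a. A few genes that the rule names are not reported here. Genes such as Lhx2, Hoxa5, Nt5e and Cdk6 were added after their values were seen. The 47 gene lists, written from general knowledge, and the comparison itself were chosen with earlier results of these data known, and list counts and medians are descriptions with no test of their own.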

Additional observations from a re-analysis of the deposited data

Results flagged for a closer look

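The deposited FPKM values hold a signal that the count table does not. The library total that fits them equals the summed counts in the 3 wt MΦ libraries, with 0 genes off by more than their rounding. In BMI1-KO MΦ replicates 1, 2 and 3 it is larger by 512, 559 and 734 counts, and with the summed counts as the total 970, 962 and 1218 genes were off. With the larger total 0 genes were off. These values stand out because the wt libraries, as controls, show an excess of 0. The BMI1-KO MM-MΦ libraries had an excess of 629 to 700 counts. Which gene the missing counts belong to was not tested. Bmi1 is listed at 0 in both units in these libraries.

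No group here has 4 or more samples, so no library was tested as an outlier, and 0 genes passed the test of a difference between MΦs and MM-MΦs.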

How the results depend on the processing

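The 7 calls between genotypes became 78 with DESeq2 (46 higher, 32 lower), 14 without a filter on low counts (11 higher, 3 lower, of 24317 genes) and 2 with the 6 MΦ libraries alone (663 genes at an unadjusted p under 0.05 against 819). They became 5 with library totals alone (4 higher, 1 lower), and 8 with limma-voom (6 higher, 2 lower). With 1 MΦ library left out there were 3 to 6. In 2 alternatives chosen after seeing the data there were 5 without the 4 libraries numbered replicate 3 (3 higher, 2 lower) and 2 without the 4 numbered replicate 1. The cause of these differences was not tested, except that the fit to 6 libraries has fewer samples to estimate the spread. All 7 genes were among the calls of DESeq2, limma-voom and the fit without a filter.

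With the replicate number as a block there were 206 calls in the fit to 12 libraries (90 higher, 116 lower) and 77 in the fit to 6 (32 higher, 45 lower), all 7 genes among them. With the block, genes at an unadjusted p under 0.05 on the lower side were counted again. In the fit to 12 libraries they were 20 of 42 S phase genes and 31 of 53 G2 and M phase genes. In the fit to 6 they were 18 and 35. These lists had 0 calls, while 19 and 8 of 60 histone genes were called lower. Of all 14197 genes, 1894 and 1441 reached that unadjusted p with the block, in either direction, against 819 in the main fit. Whether the numbers pair the genotypes is not given in the labels, and they were not read as pairs in the main test. Deviations of same-numbered wt and BMI1-KO MΦ libraries from their group means correlated at 0.48, -0.03 and 0.50 across genes. Those of differently numbered libraries correlated at -0.53 to 0.19. Genes are not independent replicates. The interaction had 0 calls in every setting run, with 103 to 289 genes at an unadjusted p under 0.05.

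Among 89 named genes and 17 alternatives, 1385 of 1513 values kept direction and side of the threshold, 35 were no longer past it, 83 passed it, and 10, all near 0, changed sign. Bmi1 with its listed zeros was among the 89. Commd3 was at -0.12 without wt replicate 1, -0.023 without BMI1-KO replicate 1, and -0.15 and 0.12 without the 4 libraries numbered replicate 1 and replicate 3. Myc was at -0.014, -0.076 and -0.15 without wt replicate 1, wt replicate 2 and BMI1-KO replicate 2, and at 0.22 without the 4 numbered replicate 3. Cdkn1a was at -0.023, -0.00044 and -0.075 without wt replicate 1, BMI1-KO replicate 1 and BMI1-KO replicate 2, and at -0.041 and 0.16 without the 4 numbered replicate 1 and replicate 3. With a prior count of 0.5 the first component of the MΦ libraries held 41.2% of the variance. A rule of 10 counts in place of 5 for genes near 0 in 1 genotype was also chosen after seeing the data. Below about 3 counts over a group, presence and absence could not be told apart.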

Other observations

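By the same counting rule, 8 genes were near 0 in BMI1-KO MΦs and at 5 counts or more in each wt MΦ library. Beside Bmi1 they included Nrg2, a neuregulin ligand of ErbB receptors, with 10, 5 and 21 counts in wt and 0, 1 and 1 in BMI1-KO MΦs, and Shc2, an adaptor of receptor kinases, with 9, 5 and 5 against 1, 1 and 1. In MM-MΦs Nrg2 had 0, 4 and 10 counts in wt and 10, 5 and 0 in BMI1-KO, so the groups overlapped there. Gm20619 had 5, 8 and 9 counts in wt and 0 in each BMI1-KO MΦ library, and 1, 3 and 7 against 0 in each in MM-MΦs.

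Several lists of macrophage housekeeping and immune genes had medians near 0, with members on both sides. The median log2 fold change was -0.04 over 28 lysosome genes, -0.01 over 25 genes of cholesterol synthesis and efflux, 0.07 over 18 glycolysis genes, -0.13 over 26 nuclear genes of the respiratory chain and -0.13 over 16 complement genes. Toll-like and Fc receptors had a median of -0.02 over 22 genes, and inflammatory cytokine genes one of -0.10 over 16. At an unadjusted p under 0.05 there were 1 higher and 2 lower complement genes, 1 higher and 1 lower cytokine gene, 1 higher lysosome gene, 1 lower respiratory chain gene, and 0 in the other lists of this paragraph. Over all genes 2.96% reached that p on the higher side and 2.81% on the lower. Complement genes ran from -3.0 to 1.07 and lysosome genes from -2.10 to 0.68 on the log2 scale. The lowest complement value is that of Itgax, given above with the dendritic cell markers. The lowest lysosome value is that of Atp6v0d2, given below. The 20 macrophage identity genes had a median of -0.10. None of these lists held a gene past the edgeR threshold.

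Atp6v0d2, a proton pump subunit abundant in osteoclasts, had 6142, 8754 and 1527 counts in wt MΦs and 2213, 1315 and 302 in BMI1-KO MΦs (-2.10 on the log2 scale, SE 1.0, edgeR adjusted p = 0.896), lowest in replicate 3 of each genotype. The osteoclast list summed to 950, 1330 and 506 CPM in wt MΦs and 546, 492 and 500 CPM in BMI1-KO MΦs.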
